A study of Homo sapiens with 30 samples.

Results

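The genes described here encode the aminoacyl-tRNA synthetases, 36 of the 60675 genes in the deposited table: 20 cytosolic enzymes and 16 that work in mitochondria. They were listed by name as members of the 2 families. All 36 were found by Ensembl gene ID, and all 36 passed the filter on low counts, so none was lost before testing, which covered 18783 genes. Symbols given here are older ones (AARS is now AARS1, and likewise for most of the cytosolic genes).

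Messenger RNA was sequenced from HT29 cells, a human colorectal adenocarcinoma line, after 24 h with an herbal formula extracted in 70% ethanol or with solvent alone. The vehicle group received 0.1% DMSO (3 libraries). Bojungikgi-tang and Sayeok-tang were each given at 500, 100 and 20 µg/mL with 3 libraries per dose. Banhasasim-tang was given at the same doses with 2 libraries per dose (replicates 2 and 3), and Yijung-tang with 1 library per dose (replicate 3). HT29 is 1 cancer line, so the values describe that line only. The labels do not say whether replicates came from separate cultures. A p-value therefore reflects the spread among the libraries at hand, which may be technical. In bulk libraries a change in every cell and a larger change in some of the cells cannot be told apart. By their sample codes the libraries form 3 series: that of the vehicle, that shared by Yijung and Banhasasim, and that shared by Sayeok and Bojungikgi.

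In units of 1000000 expected counts, library totals ran from 36.3 to 71.6 with a median of 50.1, and levels are given as counts per 1000000 (CPM). All 11 colon epithelium markers examined had a median of at least 1 CPM, with a summed level of 10317 to 13927 CPM. Of 12 markers of fibroblasts, endothelium and leukocytes, 4 reached a median of 1 CPM, and their summed level was 10.6 to 14.8 CPM. The collagen gene COL1A2 was at 0 in 28 of 30 libraries and the T cell gene CD3E in 23. Vehicle replicate 1 and Bojungikgi 500 µg/mL replicate 2 lay apart from their replicates for several synthetases. The effect of leaving each out is given beside the counts it moves. Over all genes with enough counts, the 2 Banhasasim 500 µg/mL libraries differed most of all replicate pairs (chi-square per gene 45.1). Bojungikgi 500 µg/mL replicates 2 and 3 came next (44). Mitochondrial ribosomal RNA took 12.9% and 9.41% of counts in the Banhasasim 500 µg/mL libraries and 0.91% to 1.91% in the other 28.

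An aminoacyl-tRNA synthetase joins an amino acid to its tRNA, the step that decides which residue a codon is read as. The enzymes fall into class I and class II by the fold of the catalytic domain, and some cytosolic members are held together in a multi-synthetase complex on the scaffold proteins AIMP1, AIMP2 and EEF1E1. Mitochondria charge their own tRNAs with a separate set of nuclear-encoded enzymes, except that GARS and KARS each make both a cytosolic and a mitochondrial form. When amino acids run short or the endoplasmic reticulum is stressed, kinases phosphorylate the initiation factor eIF2α and the transcription factor ATF4 is translated. ATF4 binds, with a C/EBP partner, a composite element near genes of amino acid synthesis, amino acid transport and several cytosolic synthetases.

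A short form of that composite element, TGATGNAA, was searched in promoter windows of RefSeq (GRCh38.p14) that run from 250 bases before to 50 after each start. Both strands were read, where the other strand shows TTNCATCA, and no other motif was searched. Windows were found for 30 of the 36 synthetases. DARS, LARS, VARS, YARS, AARS2 and VARS2 had no entry. The letters occurred in windows of 7 of 16 cytosolic genes and 1 of 14 mitochondrial genes, against 1217 of 27305 genes in the whole table (4.46%). Over all 35116 windows the share was 3.62%. The 8 stretches are shown because they are the part of each promoter with the searched letters, given in capitals with 10 bases on either side, 5′ to 3′ on the gene's own strand.
AARS: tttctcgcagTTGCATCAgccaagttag
CARS: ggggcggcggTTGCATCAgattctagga
GARS: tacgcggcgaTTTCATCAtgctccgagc
IARS: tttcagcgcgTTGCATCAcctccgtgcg
MARS: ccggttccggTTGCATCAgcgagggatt
NARS: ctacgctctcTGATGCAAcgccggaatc
TARS: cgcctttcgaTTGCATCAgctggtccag
YARS2: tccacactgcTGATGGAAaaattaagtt

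The AARS stretch lies on the minus strand at chr16:70289676-70289703, with the letters at position -187 from the start. The CARS stretch (minus strand, chr11:3057408-3057435), the MARS stretch (plus strand, chr12:57488054-57488081) and the TARS stretch (plus strand, chr5:33440957-33440984) have theirs at -2, -4 and 3. The GARS stretch (plus strand, chr7:30594835-30594862, at -33), the IARS stretch (minus strand, chr9:92293693-92293720, at -13) and the NARS stretch (minus strand, chr18:57621805-57621832, at 15) also lie close to a start. The YARS2 stretch lies on the minus strand at chr12:32756077-32756104, at -197. The 7 cytosolic genes share TTGCATCA or its reverse complement except GARS, which has TTTCATCA. A match of letters is a description of the sequence and does not show that a protein binds there.

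Most cytosolic synthetase mRNAs were higher at the highest dose of Banhasasim than at the lowest, while most of the mitochondrial set was not called. Between 500 and 20 µg/mL (n = 2 each), 13 of 20 cytosolic genes were higher and 0 lower, with a median log2 fold change of 0.34. Of the 16 mitochondrial genes 1 was higher and 0 lower, with a median of 0.06. Over all 18783 genes tested, 3.82% were called higher, 4.00% lower and 7.82% in either direction, and the median was 0.01. A call is a Benjamini-Hochberg adjusted p under 0.05 over all genes tested, from edgeR's quasi-likelihood test. The heat map of all 30 libraries shows both Banhasasim 500 µg/mL columns apart from the rest in the upper, cytosolic block.

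**Figure D1:**
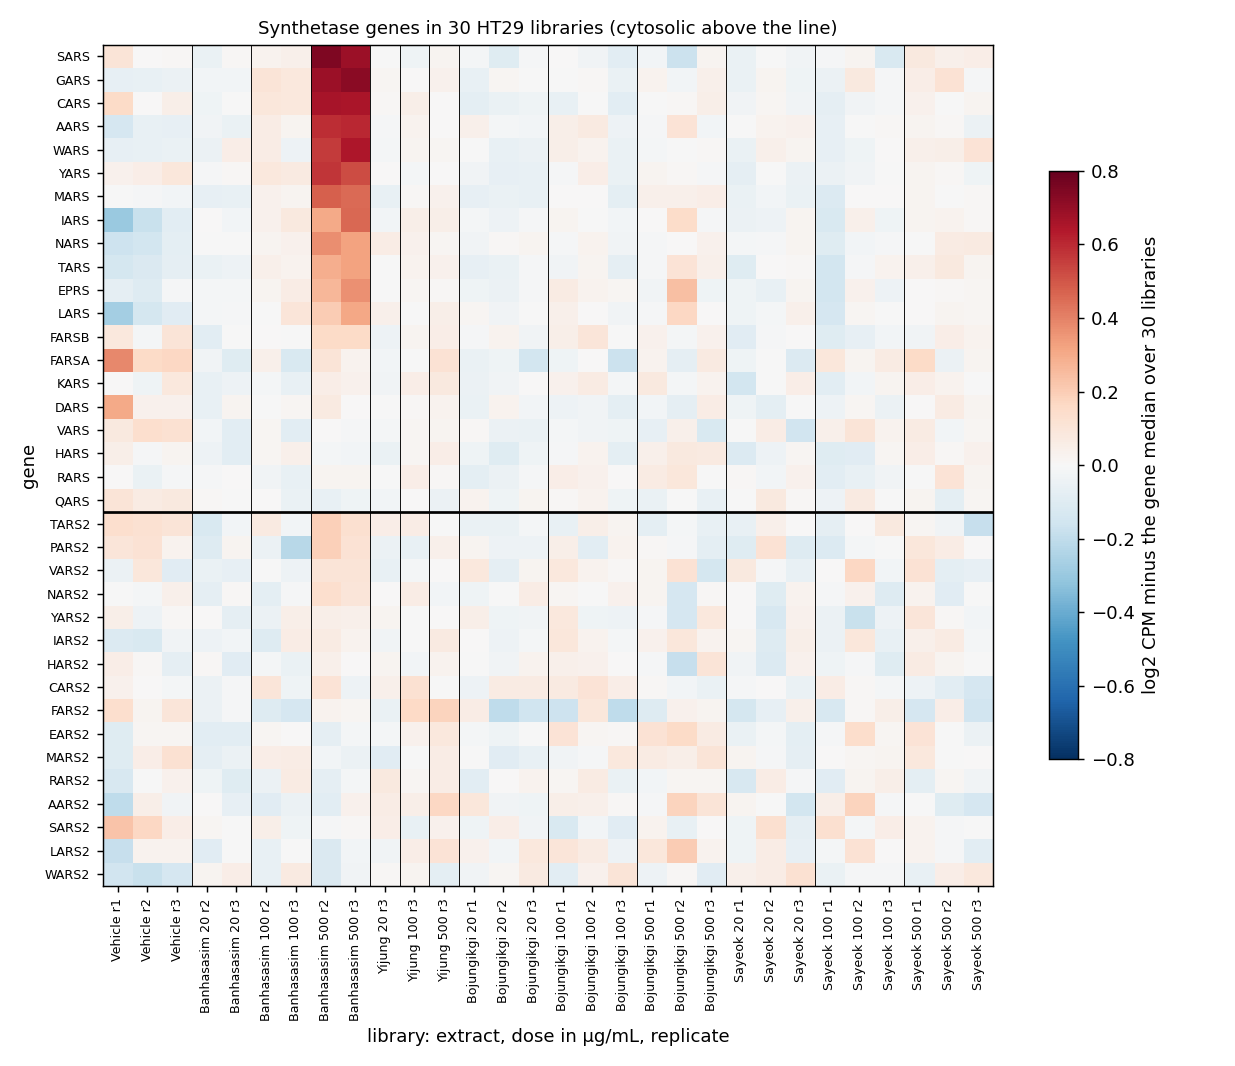
Log2 CPM of each synthetase gene (rows, cytosolic above the line, mitochondrial below) in each of the 30 libraries (columns), less the gene's median over all libraries, with red above and blue below that median. The 2 Banhasasim 500 µg/mL columns are red for 13 of the 20 cytosolic genes and near 0 for most of the 16 mitochondrial genes.

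SARS, the seryl enzyme (ENSG00000031698, chromosome 1 at 109213918 to 109238169, GRCh38), had the largest rise. It stood at 101 and 106 CPM in the 20 µg/mL libraries, at 107 and 108 CPM at 100 µg/mL and at 176 and 169 CPM at 500 µg/mL. The other 28 libraries of the study lay between 93.4 and 113 CPM, so the highest dose did not overlap with any of them. Its log2 fold change was 0.74 ± 0.06 (SE; edgeR adjusted p = 1.14e-09), a 1.67-fold rise.

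GARS, which makes the glycyl enzyme of both compartments (ENSG00000106105, chromosome 7 at 30594681 to 30634033), stood at 189 and 189 CPM at 20 µg/mL. It reached 206 and 203 CPM at 100 µg/mL and 307 and 315 CPM at 500 µg/mL, against 183 to 207 CPM in the other 28 libraries. The rise was 0.72 ± 0.05 on the log2 scale (edgeR adjusted p = 9.46e-11), and no other library came near the 500 µg/mL values.

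CARS, the cysteinyl enzyme (ENSG00000110619, chromosome 11 at 3000922 to 3057613), stood at 68.9 and 70.3 CPM, then 75.2 and 74.8 CPM, then 112 and 111 CPM over the 3 doses. AARS, the alanyl enzyme (ENSG00000090861, chromosome 16 at 70252295 to 70289543), stood at 144 and 142 CPM, then 154 and 149 CPM, then 222 and 224 CPM. Both were higher at 500 µg/mL than in all other 28 libraries, whose highest values were 78.4 CPM for CARS, in vehicle replicate 1, and 159 CPM for AARS. The log2 fold changes between 500 and 20 µg/mL were 0.68 ± 0.05 for CARS (edgeR adjusted p = 1.59e-10) and 0.64 ± 0.05 for AARS (edgeR adjusted p = 1.15e-09).

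WARS, the tryptophanyl enzyme (ENSG00000140105, chromosome 14 at 100333788 to 100376805), stood at 96.0 and 103 CPM at 20 µg/mL, at 103 and 96.6 CPM at 100 µg/mL and at 146 and 156 CPM at 500 µg/mL. Its change was 0.60 ± 0.05 (log2, SE; edgeR adjusted p = 3.92e-09), with the other 28 libraries at 94.7 to 107 CPM. WARS is known as an interferon-induced gene. Of 12 other interferon genes listed 11 were tested. Between the same doses 0 were higher and 6 lower (median log2 fold change -0.33), against 3.82% and 4.00% of all genes. Among the lower were IFIT1 (-0.87 ± 0.14, SE), which binds viral RNA caps, and the signal transducer IRF9 (-0.64 ± 0.10, SE). In Bojungikgi 5 and in Sayeok 7 of the same 11 were lower, against 1.16% and 2.03% of all genes, and WARS was called in neither. A link between these genes and WARS was not tested.

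YARS, the tyrosyl enzyme (ENSG00000134684, chromosome 1 at 32775237 to 32818153), stood at 190.2 and 193 CPM at 20 µg/mL and at 285 and 276 CPM at 500 µg/mL (0.55 ± 0.04, SE; edgeR adjusted p = 1.38e-09). MARS, the methionyl enzyme (ENSG00000166986, chromosome 12 at 57475445 to 57517569), stood at 167 and 168 CPM and then at 243 and 239 CPM (0.53 ± 0.04, SE; edgeR adjusted p = 2.67e-09). MARS was the member of the multi-synthetase complex with the largest rise. Its exons share 355 bases with those of DDIT3 on the opposite strand, itself an ATF4-induced gene, and the strand setting of the counting is not given in the sources used here. Over all libraries the table assigns 267765 counts to MARS and 8390 to DDIT3. Exons of GARS (99 bases, with GARS-DT), YARS (396, with S100PBP) and WARS (287, with WDR25) also overlap a gene on the opposite strand.

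The plot of CPM against dose shows that these rises fell between 100 and 500 µg/mL. From 20 to 100 µg/mL 0 of the 36 members were called by edgeR, against 0.0852% of all genes (0.0799% higher, 0.00532% lower). Unadjusted, 2 members had a p under 0.05 in that step, and DESeq2 called 0. From 100 to 500 µg/mL 11 cytosolic genes and 1 mitochondrial gene were higher and 0 lower, against 4.16% of all genes called (2.10% higher, 2.06% lower). GARS changed by 0.61 ± 0.05, SARS by 0.68 ± 0.06, WARS by 0.59 ± 0.05 and AARS by 0.56 ± 0.05 in that step (log2, SE). FARSB and LARS, called between 500 and 20 µg/mL, were not called between 500 and 100 µg/mL by edgeR.

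**Figure D2:**
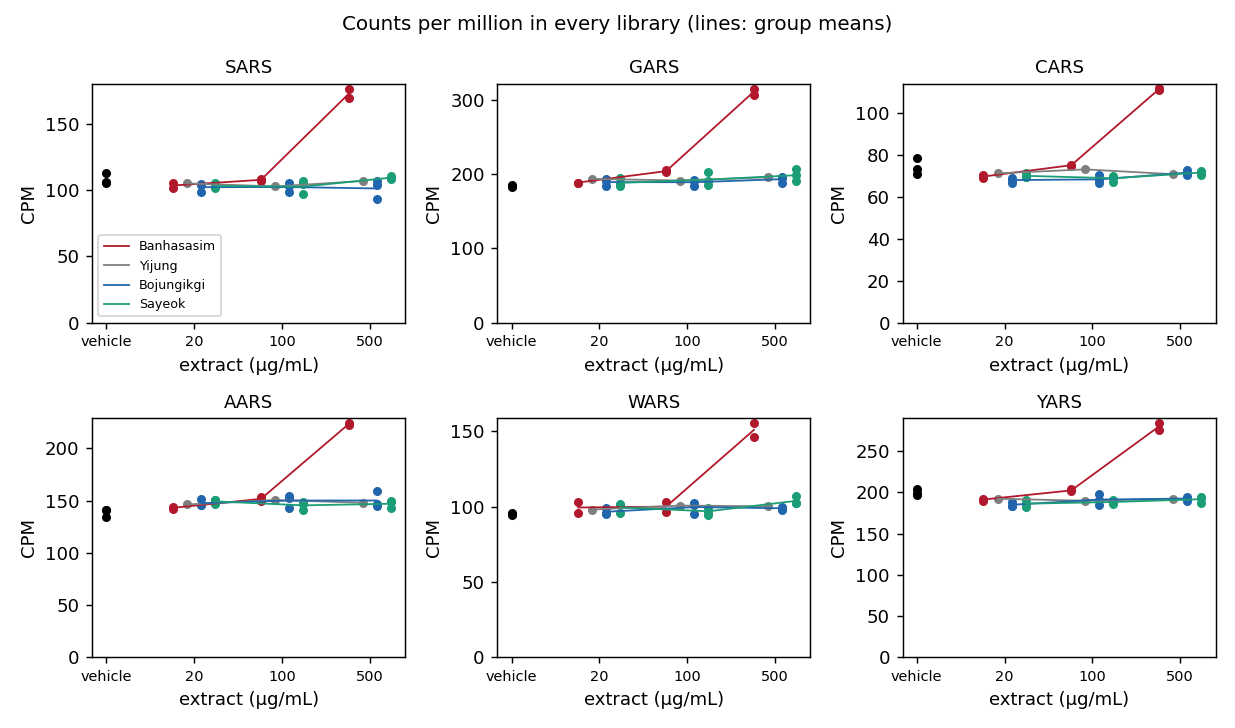
CPM (linear axis from 0) of the 6 synthetase genes with the largest Banhasasim rise, in every library, against extract concentration in µg/mL (spaced evenly); points are libraries, lines join group means, and the vehicle is in black. For SARS the Banhasasim points at 500 µg/mL lie at 176 and 169 CPM, above all other libraries (93.4 to 113 CPM), and the points of the other extracts lie among those of the vehicle and the lower doses.

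A second group of cytosolic enzymes rose less, by 0.20 to 0.40 on the log2 scale. IARS, the isoleucyl enzyme (ENSG00000196305, chromosome 9 at 92210207 to 92293756), stood at 386 and 379 CPM at 20 µg/mL, at 394 and 406 CPM at 100 µg/mL and at 476 and 530.4 CPM at 500 µg/mL. The change was 0.40 ± 0.06 (SE; edgeR adjusted p = 1.55e-04). The 500 µg/mL libraries lay above the other 28, of which Bojungikgi 500 µg/mL replicate 2 came nearest at 426 CPM, and they differed from each other more than for the genes above.

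NARS, the asparaginyl enzyme (ENSG00000134440, chromosome 18 at 57600656 to 57622213), stood at 170.4 and 171 CPM at 20 µg/mL and at 222 and 214 CPM at 500 µg/mL (0.35 ± 0.05, SE; edgeR adjusted p = 5.23e-06). TARS, the threonyl enzyme (ENSG00000113407, chromosome 5 at 33440696 to 33469539), stood at 282 and 285 CPM and then at 357 and 366 CPM (0.35 ± 0.06, SE; edgeR adjusted p = 9.98e-05). Neither gene's 500 µg/mL values overlapped with any other library, the nearest being 179.8 CPM for NARS and 316 CPM for TARS.

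EPRS, the only cytosolic enzyme that joins 2 synthetase activities, glutamyl and prolyl, in 1 chain (ENSG00000136628, chromosome 1 at 219968601 to 220046658), stood at 284 and 284 CPM at 20 µg/mL and at 344 and 369.6 CPM at 500 µg/mL. LARS, the leucyl enzyme (ENSG00000133706, chromosome 5 at 146113038 to 146182660), stood at 211 and 212 CPM and then at 245 and 265 CPM. Their changes were 0.33 ± 0.07 (SE; edgeR adjusted p = 0.00209) and 0.27 ± 0.06 (SE; edgeR adjusted p = 0.0064). For both genes the lower of the 500 µg/mL libraries lay just above Bojungikgi 500 µg/mL replicate 2, at 338 CPM for EPRS and 239 CPM for LARS. The LARS call was lost without 20 µg/mL replicate 2 (edgeR adjusted p = 0.0629), 20 µg/mL replicate 3 (0.0584) or 500 µg/mL replicate 3 (0.0907).

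The 2 chains of the cytosolic phenylalanyl enzyme gave different calls. FARSB, the beta chain (ENSG00000116120, chromosome 2 at 222570536 to 222656337), stood at 74.9 and 79.1 CPM at 20 µg/mL and at 88.5 and 88.5 CPM at 500 µg/mL (0.20 ± 0.05, SE; edgeR adjusted p = 0.0135). FARSA, the alpha chain, stood at 58.5 and 55.7 CPM and then at 64.1 and 60.9 CPM (0.13 ± 0.08, SE; edgeR adjusted p = 0.369). The difference between the 2 chains was not tested, and the FARSB call was lost in 5 of 10 alternatives, among them leaving out Banhasasim 500 µg/mL replicate 2 (adjusted p = 0.101), 500 µg/mL replicate 3 (0.0637) or 20 µg/mL replicate 2 (0.19, all edgeR).

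The other cytosolic enzymes that were not called changed by -0.05 to 0.10. KARS, the lysyl enzyme of both compartments, stood at 212 and 215 CPM at 20 µg/mL and at 229.7 and 227 CPM at 500 µg/mL (0.10 ± 0.06, SE; edgeR adjusted p = 0.354). DARS, VARS, HARS and RARS, the aspartyl, valyl, histidyl and arginyl enzymes, changed by 0.05, 0.05, 0.04 and 0.03. QARS, the glutaminyl enzyme, changed by -0.05 ± 0.05 (SE; edgeR adjusted p = 0.61). For each of these 6 genes, and for FARSA, the 500 µg/mL libraries lay within the range of the other 28.

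Called and uncalled genes were found in both structural classes and in both states of assembly. Of 9 class I enzymes 6 were higher (median 0.40), of 10 class II enzymes 6 were higher (median 0.28), and EPRS holds a domain of each class. Of the 12 cytosolic enzymes outside the multi-synthetase complex 9 were higher (median 0.45). Of the 8 inside it 4 were higher (median 0.18), namely MARS, IARS, EPRS and LARS, whereas KARS, DARS, RARS and QARS were not. The scaffold genes AIMP1 (0.08 ± 0.08), AIMP2 (0.21 ± 0.09) and EEF1E1 (0.12 ± 0.12, all log2 with SE) were not called either. These counts describe the groups, and no difference between them was tested.

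The searched promoter letters were found in 7 of the 11 called cytosolic genes with a window (63.6%) and in 0 of the 5 uncalled ones, FARSA, HARS, KARS, QARS and RARS. The motif was chosen with earlier results of these data known, and the difference between called and uncalled genes was not tested. The called genes without the letters were SARS, WARS, EPRS and FARSB, so the gene with the largest rise was among them. No match says only that the letters are not in that window. Of the other ATF4 targets listed, 6 of 21 with a window held the letters (28.6%). Of genes for cytosolic translation factors, mitochondrial translation factors and tRNA maturation, 0 of 13, 0 of 11 and 0 of 14 did. Over all 27305 genes with a window the share was 4.46%. A count of 0 in lists this short, the 5 uncalled synthetases included, lay near that share. No difference between the lists was tested.

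**Figure D3:**
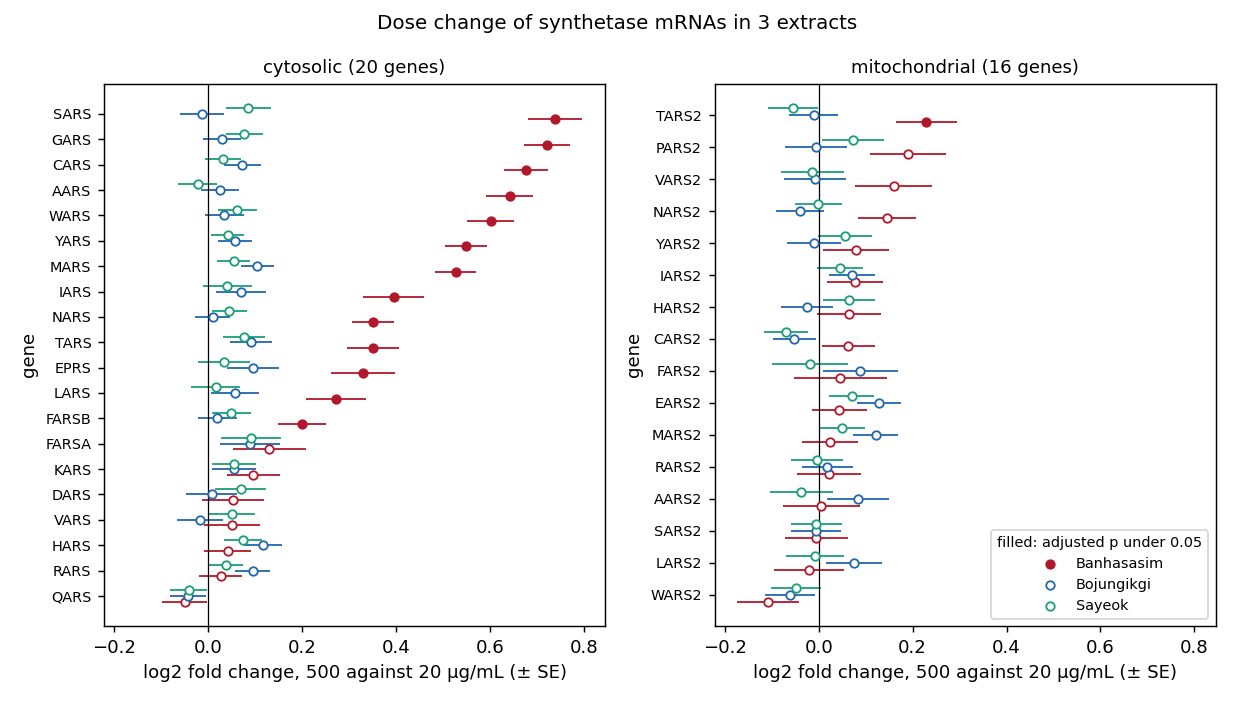
Log2 fold change between 500 and 20 µg/mL (x axis, bars ± SE) of each cytosolic (left) and mitochondrial (right) synthetase gene in Banhasasim, Bojungikgi and Sayeok; filled points passed an adjusted p under 0.05. Filled points are seen for Banhasasim alone, 13 on the left between 0.20 and 0.74 and 1 on the right, TARS2, at 0.23.

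From the lowest to the highest dose of Banhasasim 1 of the 16 mitochondrial synthetases passed the test. The called one was TARS2, the mitochondrial threonyl enzyme (ENSG00000143374, chromosome 1 at 150487364 to 150507609). It stood at 23.0 and 24.7 CPM at 20 µg/mL, at 26.3 and 24.7 CPM at 100 µg/mL and at 28.6 and 27.3 CPM at 500 µg/mL (0.23 ± 0.06, SE; edgeR adjusted p = 0.026). The vehicle libraries, at 27.5, 27.3 and 26.9 CPM, overlapped with the 500 µg/mL values, and the call was lost in 4 of 10 alternatives, among them leaving out Banhasasim 500 µg/mL replicate 2 (edgeR adjusted p = 0.247) or 20 µg/mL replicate 2 (0.255).

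PARS2, the mitochondrial prolyl enzyme and the member with the lowest level per kilobase, stood at 9.69 and 10.6 CPM at 20 µg/mL, at 10.1 and 8.95 CPM at 100 µg/mL and at 11.9 and 11.3 CPM at 500 µg/mL. It was called between 500 and 100 µg/mL (0.29 ± 0.08, SE; edgeR adjusted p = 0.044) but not between 500 and 20 µg/mL (0.19 ± 0.08, SE; edgeR adjusted p = 0.171). The PARS2 call was lost in 6 of 10 alternatives, among them leaving out 500 µg/mL replicate 2 (edgeR adjusted p = 0.347), 500 µg/mL replicate 3 (0.064) or 100 µg/mL replicate 3 (0.503). NARS2, the mitochondrial asparaginyl enzyme, was the mitochondrial member for which both 500 µg/mL libraries (34.3 and 33.5 CPM) lay above the other 28, by a small margin over the highest of them, 32.7 CPM. Its change of 0.14 ± 0.06 (SE) was not called (edgeR adjusted p = 0.172). By the same measure 13 of 20 cytosolic genes and 4.06% of all genes tested had both libraries above the other 28. The remaining 13 mitochondrial genes changed by -0.11 (WARS2) to 0.16 (VARS2).

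Set beside the mitochondrial enzyme for the same amino acid, the cytosolic gene had the larger log2 fold change in 15 of 17 pairs. The median difference was 0.29. Over the same doses of Bojungikgi and Sayeok it was larger in 9 and 13 of 17 pairs, with median differences of 0.001 and 0.04. From 20 to 100 µg/mL of Banhasasim it was larger in 12 of 17, with a median of 0.05. No pair difference was tested. The largest difference was 0.74, between SARS (0.74) and SARS2 (0.00). WARS (0.60) and WARS2 (-0.11) differed by 0.71, AARS (0.64) and AARS2 (0.01) by 0.64, and CARS (0.68) and CARS2 (0.06) by 0.61. The pairs in the other direction were VARS and VARS2 (-0.11) and HARS and HARS2 (-0.02). TARS and TARS2, both called, differed by 0.12. EPRS enters 2 pairs, with EARS2 and PARS2, and FARS2 enters 2, with FARSA and FARSB. HARS and HARS2 lie head to head with 437 exonic bases in common on opposite strands, so with an unknown strand setting their reads cannot be told apart there. VARS2 shares 1858 exonic bases with GTF2H4 on the same strand. SARS2 shares 349 with MRPS12 on the opposite strand, where the same limit holds. Over all libraries the table assigns 58300 counts to SARS2 and 118236 to MRPS12. CARS2 shares 326 with ING1 and EARS2 370 with UBFD1, both on the opposite strand.

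**Figure D4:**
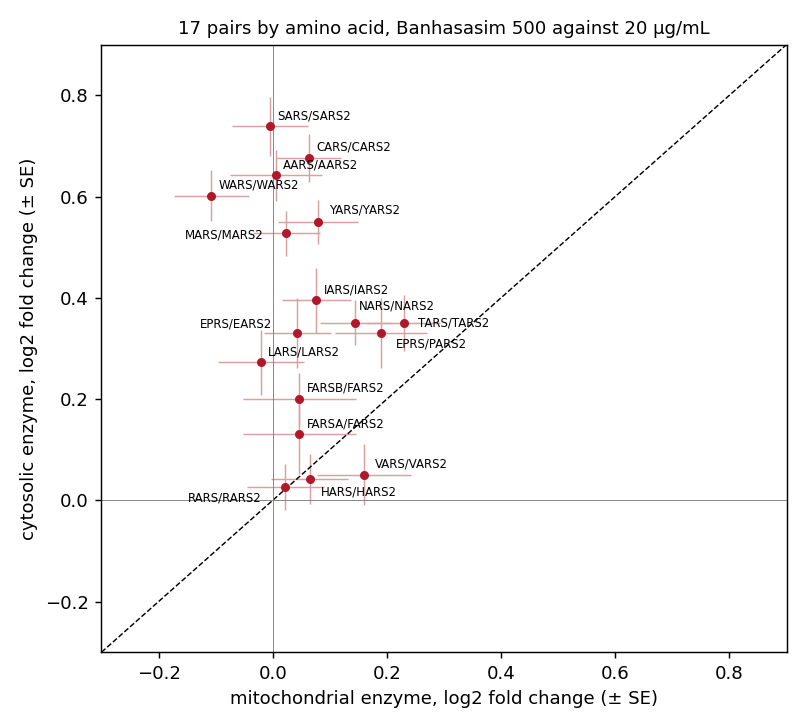
Log2 fold change between 500 and 20 µg/mL of Banhasasim for the cytosolic enzyme (y axis) against the mitochondrial enzyme (x axis) of the same amino acid, 17 pairs, with bars of ± SE; the dashed line marks equal change. Points lie above the line in 15 of 17 pairs, with SARS/SARS2 highest, and the VARS/VARS2 and HARS/HARS2 points lie below it.

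Summed over the 20 cytosolic genes, the Banhasasim 500 µg/mL libraries held 4205 and 4291 CPM. The other 28 libraries held 3193 to 3528 CPM, with a median of 3368 CPM. The 16 mitochondrial genes summed to 617 and 613 CPM at that dose, inside the range of the other libraries (588 to 626 CPM). The ratio of the sums was 6.82 and 7.00, against 5.33 to 5.80 elsewhere, so the groups did not overlap in the cytosolic sum or in the ratio and did overlap in the mitochondrial sum. With genes of the mitochondrial chromosome removed before normalization, the same 14 members were called between 500 and 20 µg/mL. Leaving out 1 library at a time left 11 to 13 of the 14.

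**Figure D5:**
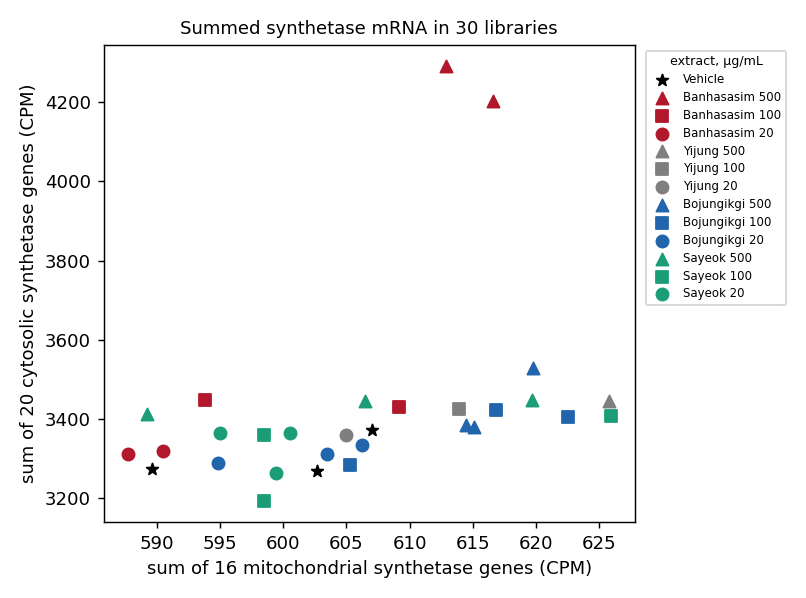
Summed CPM of the 20 cytosolic synthetase genes (y axis, not from 0) against that of the 16 mitochondrial ones (x axis, not from 0), 1 point per library, coloured by extract and shaped by dose in µg/mL. The 2 Banhasasim 500 µg/mL points, at 4205 and 4291 CPM, lie above the other 28 (3193 to 3528 CPM) while falling within their range along the x axis.

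edgeR called no synthetase between 500 and 20 µg/mL of Bojungikgi or of Sayeok, and other pairs of doses were not tested for these extracts. Between 500 and 20 µg/mL of Bojungikgi (n = 3 each) edgeR called 0 of 36 members, against 1.76% of all genes (0.602% higher, 1.16% lower), with 5 at an unadjusted p under 0.05 and 1 called by DESeq2. The median log2 fold change was 0.06 for cytosolic and -0.01 for mitochondrial genes. For Sayeok (n = 3 each) edgeR called 0 members, against 3.18% of all genes (1.14% higher, 2.03% lower), with 0 at an unadjusted p under 0.05 and 0 by DESeq2, and the medians were 0.05 and 0.00. Among 36 members, 0 calls lay near both shares of all genes. In SARS the Bojungikgi libraries stood at 104, 98.2 and 105 CPM at 20 µg/mL and at 103, 93.4 and 107 CPM at 500 µg/mL. The Sayeok libraries stood at 101, 105 and 103 CPM and then at 111, 108 and 109 CPM. The doses of Sayeok did not overlap for SARS, but the change of 0.09 ± 0.05 (SE) did not pass the test.

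The difference in dose change between extracts was tested as an interaction. It was called for 9 members between Banhasasim and Bojungikgi, against 2.06% of all genes (1.31% higher, 0.745% lower). Between Banhasasim and Sayeok it was called for 9, against 1.04% of all genes (0.745% higher, 0.298% lower). In both cases the members were SARS, AARS, GARS, CARS, NARS, YARS, WARS, MARS and IARS, all cytosolic and all with the larger rise in Banhasasim. For GARS the dose change was larger by 0.69 ± 0.06 than in Bojungikgi (SE; edgeR adjusted p = 7.1e-08) and by 0.64 ± 0.06 than in Sayeok (SE; edgeR adjusted p = 2.38e-07). For IARS it was larger by 0.33 ± 0.08 and 0.35 ± 0.08 (SE; edgeR adjusted p = 0.0365 and 0.0308), and these calls were lost in 9 and 8 of 16 alternatives. Without Banhasasim 500 µg/mL replicate 3, for example, they had values of 0.24 and 0.27 (edgeR adjusted p = 0.141 and 0.188). Both interactions use the same Banhasasim libraries. DESeq2 called 10 members in each, the 9 named here among them. Without Bojungikgi 500 µg/mL replicate 2 edgeR called 11 in the contrast with Bojungikgi, again with all 9 among them. The interaction for TARS, EPRS, LARS, FARSB and TARS2 did not pass edgeR's test.

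At 500 µg/mL itself, 12 cytosolic genes and TARS2 were higher in Banhasasim than in Bojungikgi and 0 lower, against 12.2% of all genes called (6.29% higher, 5.90% lower). Against Sayeok the same 12 cytosolic genes and TARS2 were higher and 0 lower, against 4.31% of all genes called (2.72% higher, 1.60% lower). SARS stood at 173 ± 4.91 CPM in Banhasasim (SD, n = 2), and was higher by 0.77 ± 0.05 than in Bojungikgi (SE; edgeR adjusted p = 6.14e-11) and by 0.66 ± 0.05 than in Sayeok (SE; edgeR adjusted p = 1.62e-09). Against Bojungikgi 13 members remained called without Bojungikgi 500 µg/mL replicate 2, but 7 with only the compared groups in the fit. TARS2 stayed called in 8 of 11 alternatives against Bojungikgi and in 6 of 11 against Sayeok, LARS in 7 and 10, and EPRS in 9 and 10. Without Banhasasim 500 µg/mL replicate 3, LARS had an edgeR adjusted p of 0.174 and 0.161 and EPRS of 0.0922 and 0.0695 in those comparisons. Without Banhasasim 500 µg/mL replicate 2, TARS2 had 0.233 and 0.329. The LARS difference from Bojungikgi was also lost without Bojungikgi replicate 1 (edgeR adjusted p = 0.059) or 3 (0.0517), and the TARS2 difference from Sayeok without Banhasasim 500 µg/mL replicate 3 (0.062) or Sayeok replicate 3 (0.169). For these comparisons the extract and the code series cannot be told apart. Between Bojungikgi and Sayeok at 500 µg/mL, which share a code series, edgeR called 0 members (against 0.240% of all genes, 0.0799% higher and 0.160% lower), with 3 at an unadjusted p under 0.05 and 0 by DESeq2.

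Yijung had 1 library per dose, so its values have no test. From the lowest to the highest dose SARS stood at 105, 103 and 107 CPM, and GARS at 194, 192 and 196 CPM. The cytosolic sum was 3358, 3423 and 3445 CPM and the mitochondrial sum 605, 614 and 626 CPM over the same doses, within the range of the libraries other than Banhasasim 500 µg/mL. FARS2, the mitochondrial phenylalanyl enzyme, stood at 10.1, 11.6 and 11.8 CPM, and its values at 100 and 500 µg/mL were above those of all libraries outside Yijung, the highest of which was vehicle replicate 1 at 11.5 CPM. The Yijung 500 µg/mL library shares its code series with Banhasasim and lay below both Banhasasim 500 µg/mL libraries in the cytosolic sum.

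In Banhasasim at 500 µg/mL 12 cytosolic synthetases were higher than in the vehicle and QARS was lower, against 15.3% of all genes called (8.16% higher, 7.12% lower). GARS stood at 183, 184 and 185 CPM in the vehicle libraries and was 0.76 ± 0.04 higher at 500 µg/mL (SE; edgeR adjusted p = 1.95e-12). AARS stood at 134, 141 and 141 CPM and was 0.69 ± 0.05 higher (SE; edgeR adjusted p = 2.85e-11). FARSB was not called against the vehicle. The QARS change of -0.13 ± 0.04 (SE; edgeR adjusted p = 0.048) was lost in 10 of 11 alternatives, and leaving out vehicle replicate 1 left the 12 rises.

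The other extracts and the lowest doses differed from the vehicle by smaller amounts, and most of these calls were lost without vehicle replicate 1. At 500 µg/mL Bojungikgi had 12 members called (7 higher, 5 lower) against 29.7% of all genes (14.3% higher, 15.4% lower). Sayeok had 8 (6 higher, 2 lower) against 16.6% (8.33% higher, 8.27% lower). At 20 µg/mL Banhasasim had 6 called (3 higher, 3 lower) against 12.7% of all genes (6.43% higher, 6.23% lower). Bojungikgi had 9 (4 higher, 5 lower) against 18.3% (9.11% higher, 9.20% lower), and Sayeok 8 (4 higher, 4 lower) against 18.9% (8.87% higher, 10.1% lower). Out of 36 members, each of these counts lay only a little above the share of all genes, and none is read as a trait of the synthetases. Without vehicle replicate 1 these numbers were 4, 1, 0, 1 and 1 in the same order. Without vehicle replicate 2 those of Sayeok at 500 µg/mL and of Banhasasim, Bojungikgi and Sayeok at 20 µg/mL were 4, 1, 3 and 4. Leaving out an extract library also moved them: Bojungikgi at 500 µg/mL had 6 without replicate 2, and Sayeok at 500 µg/mL had 3 without replicate 2 and 5 without replicate 3. At 20 µg/mL Banhasasim had 0 without replicate 2 or without replicate 3, Bojungikgi had 4, 4 and 1 without replicates 1, 2 and 3, and Sayeok had 5 without replicate 1 and 2 without replicate 3. Every one of these comparisons uses the same 3 vehicle libraries. The extract, the code series and the vehicle's own series cannot be told apart here.

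IARS and FARSA were called in most of these comparisons. IARS stood at 314, 340.0 and 363 CPM in vehicle replicates 1, 2 and 3 and at 386 and 379 CPM in Banhasasim 20 µg/mL, a difference of 0.18 ± 0.06 (SE; edgeR adjusted p = 0.0494). FARSA stood at 77.9, 66.3 and 66.9 CPM in the vehicle and at 58.5 and 55.7 CPM in Banhasasim 20 µg/mL, a difference of -0.30 ± 0.07 (SE; edgeR adjusted p = 0.0096). In both genes vehicle replicate 1 lay farthest from the Banhasasim 20 µg/mL libraries, and the other vehicle libraries lay on the same side of them. FARSA was called lower than the vehicle in 5 of the 6 comparisons, at -0.19 to -0.31, and in Banhasasim at 500 µg/mL its difference of -0.17 ± 0.07 (SE) was not called (edgeR adjusted p = 0.116). IARS was called higher in all 6, at 0.16 to 0.57. Without vehicle replicate 1, FARSA stayed called in Bojungikgi at 20 µg/mL (edgeR adjusted p = 0.0312) and IARS in Bojungikgi (0.0284) and Banhasasim at 500 µg/mL, and their other calls were lost. Without vehicle replicate 1 the Banhasasim 20 µg/mL differences were 0.12 for IARS (edgeR adjusted p = 0.256) and -0.22 for FARSA (edgeR adjusted p = 0.0702), and neither call held without either Banhasasim 20 µg/mL library.

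Levels of different synthetase genes were compared per kilobase of the principal transcript, as CPM per kb over the 28 libraries other than Banhasasim 500 µg/mL. KARS was highest (median 110 CPM per kb, range 99.6 to 117), followed by IARS (82.6, range 67.3 to 91.5) and GARS (72.5, range 69.4 to 78.7). The ranges of IARS and GARS overlapped, and KARS overlapped with neither. The cytosolic genes from MARS to NARS in that order had medians of 59.9 to 55.1 CPM per kb, with ranges that overlapped. Among mitochondrial genes IARS2 was highest, with a median of 40.2 CPM per kb (37.2 to 43.0), between AARS (42.3) and DARS (37.9). CARS2 followed, with a median of 24.1 CPM per kb, beside FARSB (23.5), and the other 14 had medians of 19.5 CPM per kb or less. PARS2 was lowest, with a median of 4.42 CPM per kb (3.81 to 4.81).

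Genes around the synthetases were read from lists of the same pathway, between 500 and 20 µg/mL of Banhasasim. Of 26 genes listed as ATF4 and its targets other than synthetases, chosen with earlier results of these data known, 25 were tested. Against 3.82% of all genes called higher and 4.00% lower, 24 of these were higher and 0 lower (median 0.94). They included ASNS, the asparagine synthetase (66.9 to 244 CPM, 1.87 ± 0.05), CHAC1, which degrades glutathione (2.97 to 20.3 CPM, 2.77 ± 0.11), and PSAT1 of serine synthesis (110 to 294 CPM, 1.42 ± 0.06, group means and log2 with SE). ATF4 itself rose by 0.59 ± 0.08, the tRNA export receptor XPOT by 0.47 ± 0.06, and PPP1R15A, the gene not called, changed by 0.21 ± 0.07 (log2, SE), 3 genes chosen after their values were seen. The synthetase rises, 0.74 at most, lay below the median of this list. In Bojungikgi 2 of the 25 were higher over the same doses, against 0.602% of all genes. They were SLC7A11 (0.54 ± 0.07) and SLC7A5 (0.24 ± 0.05), both amino acid transporters. In Sayeok 8 were higher, against 1.14% of all genes, with ASNS at 0.26 ± 0.04 and CHAC1 at 0.63 ± 0.09. edgeR called 0 synthetases in either extract between these doses. No link between the listed genes and the synthetase rises was tested.

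Few genes in other parts of the translation machinery were called between these doses of Banhasasim. Over all genes 3.82% were called higher and 4.00% lower, so 0 or 1 call in lists this short lay near that share. Of 11 further genes of tRNA charging and editing 1 was higher, AARSD1, which clears serine from the tRNA of alanine (18.2 to 22.6 CPM, 0.31 ± 0.09, SE; edgeR adjusted p = 0.0355). TARSL2, a second threonyl-type enzyme of the cytosol, was not called (-0.34 ± 0.11, SE; edgeR adjusted p = 0.0567). Of 16 cytosolic translation factors 1 was higher, EIF5 (0.18 ± 0.05, SE; edgeR adjusted p = 0.0162), and of 11 mitochondrial translation factors 0 were called. Of 20 genes of tRNA maturation and modification 0 were called, and of 13 genes of the eIF2α kinases and amino acid sensing 0 were called. In those lists the medians were 0.10, 0.06, 0.02 and 0.06 in that order. Their largest values were 0.30, 0.42, 0.23 and 0.25, within the range of the called synthetase rises.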

How the data were processed

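The 30 libraries were prepared, per the labels, from 1 µg of HT29 RNA each with a directional kit and sequenced as 100 bp pairs. The authors deposited expected counts per gene, computed with RSEM 1.3.3. The submitters' processing notes list STAR 2.7.3a, Trim Galore 0.6.5, FastQC 0.11.9 and the build GRCh38. No annotation release or strand setting is given in the sources used here. The 270 columns include 240 that match no sample here, which were left out. Fractional values made up 25.48% of those above 0, and each value was rounded to a whole count before testing. The vehicle's label gives 0.1% DMSO and the series text 2%, and the label was followed.

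Groups came from the labels. The count minimum of filterByExpr was 10, which left 18783 genes. edgeR 4.0.16 (R 4.3.3) was run with TMM scaling on all 30 libraries, with 1 mean per group and the robust quasi-likelihood option, giving 17 residual degrees of freedom and a biological coefficient of variation of 6.38%. Each of 16 comparisons was two-sided, with Benjamini-Hochberg adjustment over all genes tested. The SE was taken as the size of the log2 fold change over the root of its F statistic. CPM used TMM-adjusted library sizes, and the steps were tested on simulated data. Depth was 36.3 to 71.6 in units of 1000000 counts. Symbols, positions and exons came from GENCODE 29, where 57055 of 60675 IDs were found. Alternatives were DESeq2 1.42.0, its size factors within edgeR, no low count filter, a fit of the compared groups alone, removal of mitochondrial genes, a replicate block, and leaving out each library. Pairs of replicates differed by more than sampling noise (chi-square per gene 4.47 to 45.1, the highest between the 2 Banhasasim 500 µg/mL libraries).

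The members, gene lists, pairs and promoter motif were chosen with earlier results of these data known. Any member could be named, and values in every Banhasasim library were due for members called between 500 and 20 µg/mL. From each other list, at most 4 genes per comparison were eligible, ranked by p among those averaging 1 CPM or more.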

Additional observations from a re-analysis of the deposited data

Results flagged for a closer look

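The change in synthetase mRNA from 20 to 500 µg/mL differed between extracts by a test of the difference itself (edgeR interaction term). Between Banhasasim and Bojungikgi 9 members were called, against 2.06% of all genes, and between Banhasasim and Sayeok 9, against 1.04%. On the log2 scale the Banhasasim change exceeded that of Bojungikgi by 0.75 for SARS, 0.69 for GARS, 0.62 for AARS and 0.6 for CARS. For WARS, YARS and MARS the excess was 0.57, 0.49 and 0.42, and for NARS and IARS it was 0.34 and 0.33. Over the Sayeok change the excess was 0.66 for AARS, 0.65 for SARS, 0.64 for GARS and 0.64 for CARS. It was 0.54 for WARS, 0.51 for YARS, 0.47 for MARS, 0.35 for IARS and 0.31 for NARS. Both contrasts share the 4 Banhasasim libraries at these doses. The IARS calls were lost in 9 and 8 of 16 alternatives. edgeR called no other synthetase in either contrast, and DESeq2 called 10 cytosolic ones in each.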

How the results depend on the processing

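The size of the largest Banhasasim rises between 500 and 20 µg/mL changed little with processing. Over 10 alternatives it was 0.70 to 0.74 for GARS and 0.71 to 0.77 for SARS (log2). Their largest adjusted p-values stayed under 0.05 but lay several orders of magnitude above those given for these genes in the Results. Between 500 and 20 µg/mL 12 to 14 members were called under each alternative that kept every library, and 11 cytosolic genes were called in all 10 alternatives, those that leave out 1 library included. The exceptions were FARSB (called in 5 of 10), LARS (7 of 10) and TARS2 (6 of 10). The interaction of IARS was called in 7 of 16 alternatives against Bojungikgi and 8 of 16 against Sayeok. No called log2 fold change turned its sign. DESeq2 kept 126 of 126 called member values past the threshold, DESeq2 size factors 121, removal of mitochondrial genes 120, no low count filter 92 and a fit of only the compared groups 71. DESeq2 called 1 member between 500 and 20 µg/mL of Bojungikgi. With only the compared groups in the fit, the members called against the vehicle were 0 for Bojungikgi 500, 0 for Sayeok 500, 0 for Banhasasim 20, 1 for Bojungikgi 20 and 2 for Sayeok 20 µg/mL, and 7 for Banhasasim against Bojungikgi at 500 µg/mL. With no low count filter the same 5 vehicle comparisons gave 4, 4, 1, 3 and 4. The cause was not tested, but both alternatives change how many genes or libraries enter the fit. Leaving out 1 library at a time gave 11 to 13 members for Banhasasim 500 against 20 µg/mL and 9 to 11 against 100 µg/mL. It gave 0 to 0 for 500 against 20 µg/mL of Bojungikgi, for the same doses of Sayeok and for Bojungikgi against Sayeok. Against the vehicle it gave 12 to 13 (Banhasasim 500), 4 to 14 (Bojungikgi 500), 1 to 8 (Sayeok 500), 0 to 8 (Banhasasim 20), 1 to 9 (Bojungikgi 20) and 1 to 7 (Sayeok 20 µg/mL). It gave 11 to 13 for Banhasasim against Bojungikgi, 10 to 13 against Sayeok, and 8 to 11 and 8 to 10 for the interactions. A lone library left in a Banhasasim group is assumed to vary like the other groups. Counts over all genes moved as well. Between 500 and 20 µg/mL of Banhasasim the 1468 calls became 636 to 1519 without 1 library. With only the compared groups, 781 became 304 (Banhasasim 500 against 100), 16 became 46 (100 against 20), 331 became 54 (Bojungikgi doses), 2290 became 132 (Banhasasim against Bojungikgi), 45 became 2 (Bojungikgi against Sayeok) and 386 became 154 (interaction with Bojungikgi). Against the vehicle 2870, 5580, 3117, 2379, 3440 and 3555 became 648, 189, 1264, 38, 1985 and 1537. With no low count filter 16 became 86, 331 became 606, 45 became 593, 386 became 963, and 196, of the interaction with Sayeok, became 327. DESeq2 turned 45 into 93. With the replicate number as a block the members called between 500 and 20 µg/mL of Banhasasim were 14, and the counts of the other comparisons stayed within 1.5 times of those without it. Same-number libraries correlated at 0.031 in that comparison and at 0.143, 0.107 and -0.078 for Bojungikgi 500 µg/mL against the vehicle, and no comparison had every pair above 0.1, so the number was not taken to pair them. Small changes could be missed, also in well-counted genes and with 3 libraries per dose. In the simulated data 37.3% of planted 1.2-fold changes were called between 500 and 20 µg/mL of Banhasasim and 47.8% between those doses of Bojungikgi. For planted 1.5-fold changes the shares were 94% and 95.5%.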
